A study of Mus musculus with 18 samples.

Results

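The Hox genes of side population (SP) and non-SP cells from 3 mouse lung carcinoma lines are described here as a module of positional identity. Members were the genes whose annotated symbol is Hoxa, Hoxb, Hoxc or Hoxd followed by a number, each read from the brightest of its probe sets, by the mean of 18 arrays. Of the 39 Hox genes in the mouse gene table, 33 had a probe set that names no other gene, out of 18193 genes so represented on the array. These were 9 of 11 genes of the HoxA cluster on chromosome 6, 9 of 10 of HoxB on chromosome 11, 7 of 9 of HoxC on chromosome 15 and 8 of 9 of HoxD on chromosome 2. The other members had no such probe set and are not analysed here.

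Hox genes encode homeodomain transcription factors and stand in clusters in which gene order follows the order of expression along the body axis, low numbers toward the head and high numbers toward the tail. Genes with the same number in different clusters are paralogues. Cells of mesodermal origin are known to keep part of their Hox code in culture, and Hoxa5 and Hoxb5 are known for their roles in the branching and patterning of the embryonic mouse lung.

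SP cells are sorted for low staining with the DNA dye Hoechst, which their transporters export, and non-SP cells are the rest of the culture. The lines A2C12, betaD5 and cRAF_cMYC came from lung tumours of mice aged 8 months with both a c-raf and a c-myc transgene, so every group carries both transgenes and none is a normal lung control. The labels name neither the promoter of the transgenes nor whether a line is 1 clone. Each line and fraction has 3 arrays, which makes 6 groups and 9 pairs of SP and non-SP arrays, and no treatment is recorded. The labels do not say whether replicates were separate cultures, so p-values measure the spread between these samples, which may be technical.

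Both arrays of the pair labelled betaD5 1 resembled cRAF_cMYC arrays, and both of the pair labelled cRAF_cMYC 3 resembled betaD5 arrays. Over the genes tested other than Hox genes, the non-SP array labelled betaD5 1 correlated with arrays labelled cRAF_cMYC at up to 0.982 and with betaD5 arrays of other numbers at up to 0.926. For the non-SP array labelled cRAF_cMYC 3 the highest values were 0.988 with betaD5 and 0.930 with cRAF_cMYC. Lines are named as labelled, and line results are given with all arrays and without both pairs. As the pairs were left out for this resemblance, the arrays that remain in a line are alike by that choice, and p-values without both pairs describe the remaining arrays.

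The lung label was checked against markers. Of the 11 lung and airway epithelial markers 5 lay above the filter used for testing, a mean log2 level of 6.54 (Epcam, Krt8, Krt18, Krt19 and Sftpb), whereas Nkx2-1, Sftpc, Scgb1a1, Foxj1, Cdh1 and Cldn4 lay below it. Of these, Cdh1 averaged 6.66 in A2C12 non-SP arrays, 4.38 in betaD5 and 3.83 in cRAF_cMYC. All 9 fibroblast and stromal markers lay above the filter as means over all arrays. Thy1 did so through the pairs labelled betaD5 1, cRAF_cMYC 1 and cRAF_cMYC 2, and read 5.22 to 5.91 elsewhere. Mean levels of the 5 mesothelial markers were 6.11 to 6.45 in arrays labelled A2C12 and 9.22 to 11.3 in the other arrays. Of 4 leukocyte markers Cd68 and Cd3e lay above the filter and Ptprc and Cd79a below it, and of 4 endothelial markers Kdr lay above it and Pecam1, Cdh5 and Tek below it.

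Sequences are shown for the HoxC and HoxA genes whose levels separated arrays most among genes with a promoter in the table used, Hoxc4 and Hoxa9. Each line gives 300 bases from 250 before to 50 after a transcript start annotated in RefSeq (GRCm38.p6), 5′ to 3′ on the strand of the gene, with CpG dinucleotides in capitals. Hoxc4 is at chr15:103034145-103034444 on the plus strand and Hoxa9 at chr6:52227321-52227620 on the minus strand. The Hoxc4 window lies inside the annotated gene, downstream of the outermost start of Hoxc4, while the Hoxa9 window is at the outermost start.
Hoxc4: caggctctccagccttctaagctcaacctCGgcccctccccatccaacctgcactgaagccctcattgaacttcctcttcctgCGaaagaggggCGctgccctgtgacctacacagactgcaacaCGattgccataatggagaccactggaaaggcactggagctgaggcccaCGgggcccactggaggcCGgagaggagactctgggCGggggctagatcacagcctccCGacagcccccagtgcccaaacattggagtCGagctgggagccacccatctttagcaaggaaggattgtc
Hoxa9: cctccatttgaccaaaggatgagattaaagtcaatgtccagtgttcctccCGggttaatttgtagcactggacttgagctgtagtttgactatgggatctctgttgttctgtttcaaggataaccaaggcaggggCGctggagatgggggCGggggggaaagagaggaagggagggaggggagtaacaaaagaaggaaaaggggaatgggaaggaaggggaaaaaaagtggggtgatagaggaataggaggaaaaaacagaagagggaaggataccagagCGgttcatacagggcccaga
The Hoxc4 window holds 9 CpGs and the Hoxa9 window 4, against a median of 7 in 32851 promoters of the same length. On either strand neither window holds TGATTNAT, a composite site of Hox and Pbx proteins, the AT-rich TTTATTG or the TATA box TATAAA. These letters occur in 3.22%, 4.6% and 13.6% of all promoters. The absence of a match says only that these letters are not in the window.

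The clusters also contain microRNAs of the miR-196 family, which are known to target Hox messages, shown with the seed (bases 2 to 8) in capitals. RefSeq places Mir196a-2 between Hoxc10 and Hoxc9 and Mir196b between Hoxa10 and Hoxa9, and both share 1 seed. Their levels were not analysed here.
miR-196a-5p: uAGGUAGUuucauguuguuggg
miR-196b-5p: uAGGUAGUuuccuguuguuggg

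Most members above the filter belonged to the head and middle of the HoxA, HoxB and HoxC clusters. No HoxD gene was above it on a probe set that names no other gene. Above the filter lay 7 HoxA genes, 6 HoxB genes, 5 HoxC genes and 0 HoxD genes, 18 in all. By position these were 10 of the 13 measured genes of paralogue groups 1 to 5, 6 of the 10 of groups 6 to 9 and 2 of the 10 of groups 10 to 13, namely Hoxa10 and Hoxc13. Members below the filter were Hoxa11, Hoxa13, Hoxb1, Hoxb7, Hoxb13, Hoxc8, Hoxc10 and the 8 HoxD genes. Probe sets that name several genes were left out, and some of them read above the filter. A probe set of Hoxb8 and Hoxb7 read 7.65 to 9.64 over all arrays. A probe set of Hoxd4 and Hoxd3 read 6.64 to 7.09, and another of these genes read 4.52 to 5.28. Hoxc8 and Hoxc10 fell below the filter as means over all arrays although they were high on some. Hoxa9 and Hoxc4 passed it through the arrays where they were high. Hoxa9 read 5.65 to 6.35 in A2C12. Outside the pairs labelled betaD5 1, cRAF_cMYC 1 and cRAF_cMYC 2, Hoxc4 read 5.48 to 6.57. A filter on the mean can thus hide or admit a gene by some arrays only. Comparisons are therefore given over the 18 members tested with it and over all 33 without it.

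**Figure D1:**
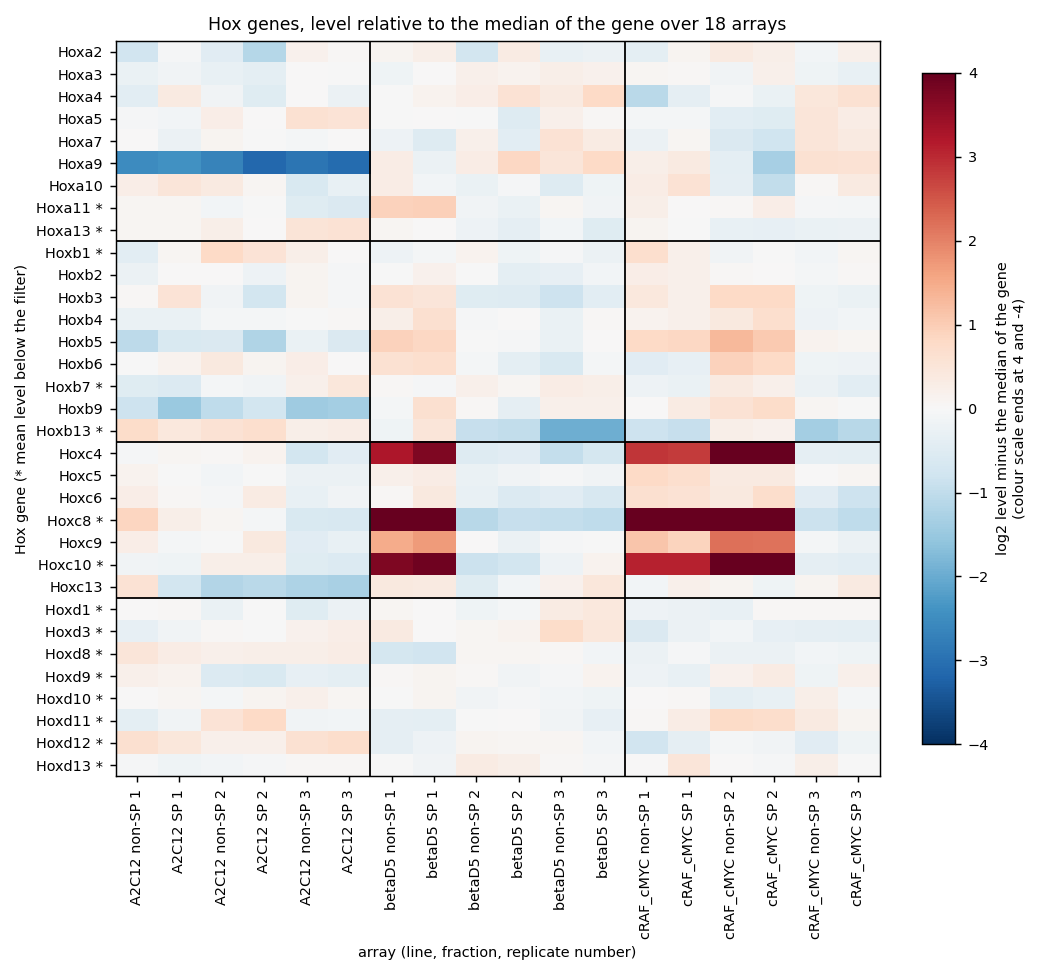
Heat map of the 33 Hox genes (rows, by cluster) on 18 arrays (columns, by line and pair). Colour gives the log2 level minus the median of the gene over all arrays, on a scale that ends at 4 and -4. Hoxc4, Hoxc8, Hoxc9 and Hoxc10 are high in the pairs labelled betaD5 1, cRAF_cMYC 1 and cRAF_cMYC 2, and Hoxa9 is low in A2C12.

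The question of the line comparisons is which Hox genes the lines kept on or off. In A2C12, Hoxa9 and Hoxb9 were lower than in either other line, and Hoxb5 was lower than in cRAF_cMYC. The HoxC genes Hoxc4, Hoxc8, Hoxc9 and Hoxc10 were high in 3 pairs and low in the other 6, in a pattern that crossed the labels of betaD5 and cRAF_cMYC. In bulk samples fewer cells of a type and less RNA per cell cannot be told apart.

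Hoxc8, which specifies thoracic segments in the mouse, had the widest range of all members, and it was singled out after its values were seen. Among non-SP arrays it read 10.61 in betaD5 1 but 3.31 and 3.44 in betaD5 2 and 3, and 10.67 and 11.01 in cRAF_cMYC 1 and 2 but 3.55 in cRAF_cMYC 3. In A2C12 it read 5.25, 4.47 and 3.78. The SP arrays showed the same split. They read 10.50, 3.48 and 3.40 in betaD5, 10.14, 10.80 and 3.38 in cRAF_cMYC, and 4.65, 4.33 and 3.76 in A2C12. No array lay between 5.25 and 10.14.

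Hoxc10, a gene of the lumbar level also singled out after its values were seen, split the same arrays. Its non-SP levels were 8.27, 3.69 and 4.33 in betaD5, 7.60, 9.14 and 4.16 in cRAF_cMYC, and 4.40, 4.77 and 4.04 in A2C12. In SP arrays they were 8.43, 3.81 and 4.67, then 7.61, 9.16 and 4.12, and 4.37, 4.76 and 4.0 in the same order of lines. The 6 high arrays were the same 6 as for Hoxc8.

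Hoxc4, at the head end of the cluster, read 9.66, 5.89 and 5.48 in betaD5 non-SP arrays and 10.14, 5.95 and 5.72 in the SP arrays. In cRAF_cMYC it read 9.29, 10.47 and 6.06 in non-SP and 9.23, 10.71 and 6.04 in SP arrays. The A2C12 levels were 6.39, 6.46 and 5.70 in non-SP and 6.51, 6.57 and 5.97 in SP arrays, with the low group.

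Hoxc9, a thoracic gene with roles in the chest and in motor neurons, showed a smaller step. It read 9.21, 7.75 and 7.70 in betaD5 non-SP arrays, 8.83, 9.96 and 7.67 in cRAF_cMYC, and 8.0, 7.71 and 7.30 in A2C12. SP arrays read 9.45, 7.52 and 7.72, then 8.64, 9.92 and 7.52, and 7.65, 8.12 and 7.43. The lowest of the 6 high arrays, at 8.64, was above the highest of the other 12, at 8.12.

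Hoxc5 depended on the probe set. On the one with the highest mean, levels were 6.64, 6.18 and 6.40 in betaD5 non-SP arrays, 7.24, 6.82 and 6.46 in cRAF_cMYC, and 6.57, 6.34 and 6.22 in A2C12. On a second probe set the same arrays read 7.92, 3.61 and 4.13, then 7.77, 9.08 and 3.84, and 3.73, 3.91 and 4.27. The second probe set shows the Hoxc8 pattern and the first a narrow form of it. The remaining probe set read 5.52, 5.28 and 6.25 in betaD5, 6.39, 6.11 and 5.11 in cRAF_cMYC and 4.94, 4.78 and 4.46 in A2C12, where every non-SP array was below the non-SP arrays of the other lines. With each probe set tested on its own and all arrays, this was the only Hoxc5 probe set called, lower in A2C12 than the mean of the other lines by a difference of -1.05 (limma adjusted p = 0.0405). Hoxc6 read 6.42 to 7.94 over all arrays on its chosen probe set, with cRAF_cMYC 1 and 2 at 7.63 to 7.94 and A2C12 overlapping the rest.

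Hoxc13, the last gene of the cluster, known for hair formation, did not share the split. It read 8.16, 6.41 and 6.36 in A2C12 non-SP arrays, against 7.98, 7.11 and 7.77 in betaD5 and 7.48, 7.69 and 7.70 in cRAF_cMYC. The non-SP array A2C12 1 was the highest of all and its SP partner read 6.86, while the other A2C12 arrays stood at 6.30 to 6.51.

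**Figure D2:**
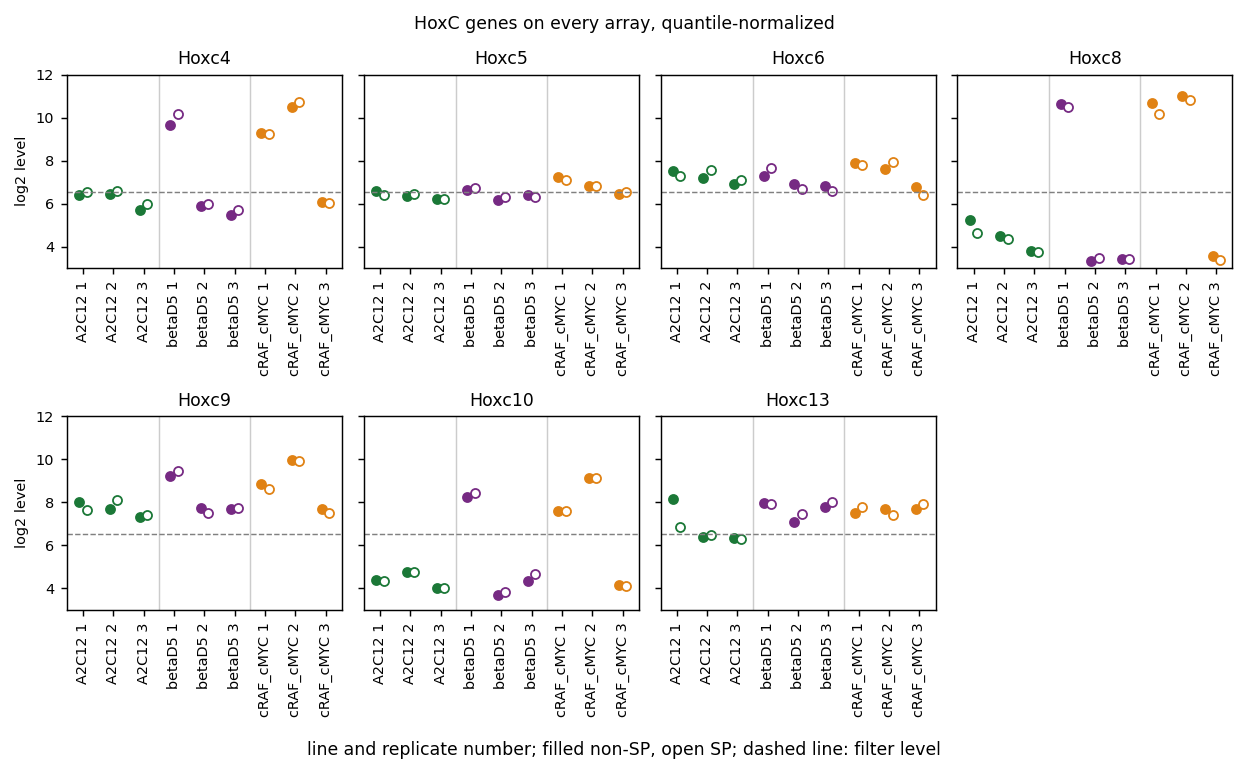
Log2 level of the 7 measured HoxC genes (one panel each) on every array, by line and replicate number, with filled points for non-SP, open points for SP and a dashed line at the filter level of 6.54. Hoxc4, Hoxc8, Hoxc9 and Hoxc10 are high in betaD5 1, cRAF_cMYC 1 and cRAF_cMYC 2, and Hoxc13 is not.

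With all arrays no HoxC gene passed in any line comparison on the probe set used. Between betaD5 and cRAF_cMYC, 0 of 18 Hox genes were called with limma and Benjamini-Hochberg adjustment, where 0% of all genes were called. Of the 18, 0 reached an unadjusted p under 0.05, beside 252 of 10916 genes. Without the filter 0 of 33 were called, where 0% of all genes were. Of the 33, 1 reached that p, beside 528 of 18193 genes. Without both pairs 6 of 18 were called (5 lower and 1 higher in betaD5), where 22.8% of all genes were, and without the filter 8 of 33 (7 lower and 1 higher), where 14.8% were. Without the filter and both pairs the difference was -7.47 for Hoxc8 (95% interval -8.31 to -6.63, limma adjusted p = 1.67e-07) and -4.37 for Hoxc10, and with all arrays that of Hoxc8 was -2.63 (95% interval -7.51 to 2.25). Without both pairs and with the filter it was -4.20 for Hoxc4, -1.67 for Hoxc9 and -0.89 for Hoxc6. The second Hoxc5 probe set gave -4.56 without both pairs, in a fit of every probe set to which no filter was applied. Mean levels of the 9 fibroblast markers in non-SP arrays were 10.72 to 10.92 in A2C12, 11.05 to 12.20 in betaD5 and 11.43 to 12.46 in cRAF_cMYC, and their part in the HoxC result was not tested.

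In the other clusters Hoxb3, Hoxb5 and Hoxa7 were called between betaD5 and cRAF_cMYC without both pairs. Hoxb3, a gene of the hindbrain and neck, read 10.22, 9.13 and 8.79 in betaD5 non-SP arrays, 10.06, 10.43 and 9.45 in cRAF_cMYC, and 9.67, 9.50 and 9.74 in A2C12. The difference without both pairs was -1.28 (limma adjusted p = 0.00128). Among non-SP arrays the same 3 were high as for Hoxc8 on this probe set, and A2C12 lay between them and the rest. A second Hoxb3 probe set did not show this split. It read 7.81, 8.04 and 7.93 in betaD5, 8.01, 8.18 and 8.07 in cRAF_cMYC and 7.63, 7.93 and 8.08 in A2C12 non-SP arrays. For Hoxa7, active in the trunk, betaD5 read 7.89, 8.30 and 8.70, cRAF_cMYC 7.88, 7.54 and 8.58, and A2C12 8.12, 8.21 and 8.05. Here betaD5 was higher by 0.79 without both pairs (limma adjusted p = 0.0202). With all pairs kept the difference was 0.30 in the non-SP arrays and -0.07 in the 9 SP arrays. The SP arrays that remain without both pairs read 7.70 and 8.43 in betaD5 and 8.18 and 7.30 in cRAF_cMYC.

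Hoxa9, which acts in blood stem cells and the posterior trunk, was lower in A2C12 than in either other line. The A2C12 non-SP arrays read 6.27, 6.10 and 5.85 and the SP arrays 6.35, 5.65 and 5.69. In betaD5 the values were 9.08, 9.08 and 9.27 in non-SP and 8.53, 9.62 and 9.58 in SP arrays. In cRAF_cMYC they were 9.03, 8.39 and 9.40, and 9.15, 7.44 and 9.35. Every A2C12 array lay below every other array on this probe set. The non-SP difference was -3.07 from betaD5 (95% interval -3.63 to -2.52, limma adjusted p = 8.51e-05) and -2.87 from cRAF_cMYC (limma adjusted p = 0.000134). The probe set used was below the filter level in A2C12 and passed the filter only through the other lines. With every probe set tested and no filter, its limma adjusted p was 8.12e-05 and 0.000147. In that fit a second Hoxa9 probe set gave -0.39 and 0.15 for the same comparisons (limma adjusted p = 0.366 and 0.786). It was above the filter level on every A2C12 array, so the probe sets of this gene disagree.

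**Figure D3:**
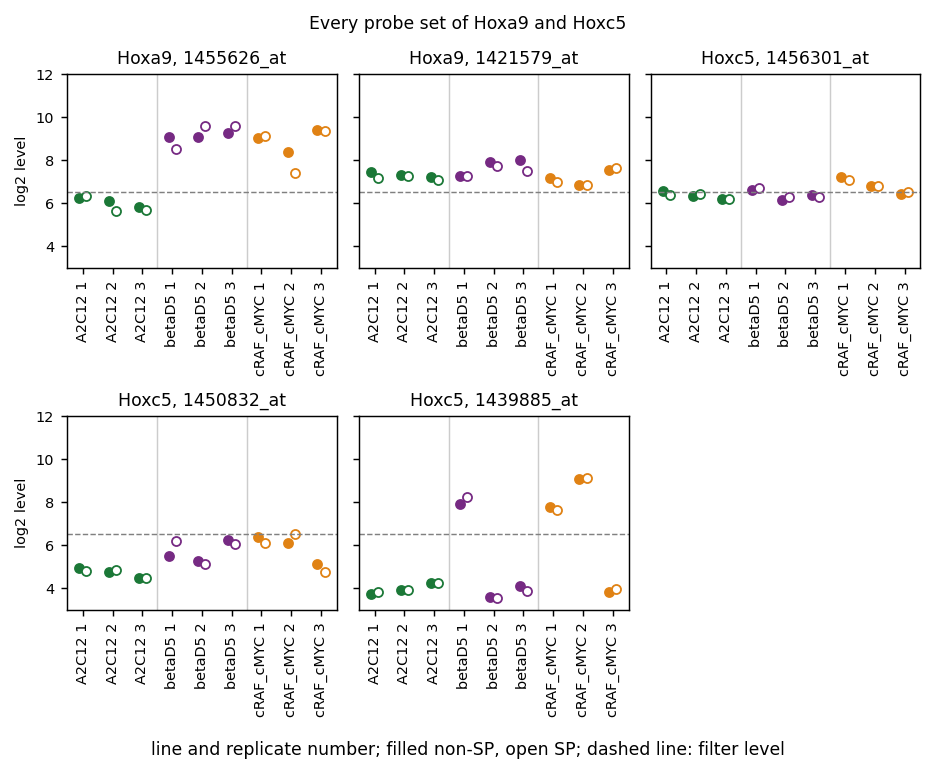
Log2 level of each probe set of Hoxa9 and Hoxc5 (one panel each) on every array, by line and replicate number, with filled points for non-SP, open points for SP and a dashed line at the filter level of 6.54. The probe sets of 1 gene differ: for Hoxa9 the probe set used is low in A2C12 and the second is not, and for Hoxc5 the panel of 1 probe set splits betaD5 and cRAF_cMYC arrays while another is lowest in A2C12.

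Hoxb9, a thoracic gene of the trunk, read 7.83, 7.64 and 7.25 in A2C12 non-SP arrays, against 8.58, 8.71 and 8.85 in betaD5 and 8.66, 9.23 and 8.73 in cRAF_cMYC. The A2C12 SP arrays read 7.17, 7.92 and 7.31, and the other SP arrays 8.30 to 9.39. The groups did not overlap. A2C12 was lower by a difference of -1.14 from betaD5 and -1.30 from cRAF_cMYC (limma adjusted p = 0.00475 and 0.00314). Of the 5 mesothelial markers 4 were also called lower in A2C12 than in either line and Upk1b was not, and their part in the Hoxa9 and Hoxb9 results was not tested.

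Hoxb5, known in lung branching and in the gut nervous system, read 6.75, 7.20 and 7.52 in A2C12 non-SP arrays, 8.70, 7.77 and 7.52 in betaD5 and 8.57, 9.08 and 7.94 in cRAF_cMYC. A2C12 3 and betaD5 3 met at 7.52, and the 6 arrays high for Hoxc8 were the 6 highest here. The difference from cRAF_cMYC passed, at -1.37 (limma adjusted p = 0.0301), as did that from the mean of the other lines, at -1.10 (limma adjusted p = 0.0282), and that from betaD5 did not. Leaving out 1 of 5 of the 6 arrays in turn lost this call, and the difference without them ranged from -1.55 to -1.09.

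Of the other members with the widest line differences, Hoxa4, Hoxa2 and Hoxb6 were not called in any line comparison with all arrays. Hoxa4, a gene of the neck and lung, read 7.02, 7.31 and 7.46 in A2C12, 7.44, 7.71 and 7.82 in betaD5 and 6.37, 7.40 and 7.91 in cRAF_cMYC non-SP arrays. Hoxa2, the patterning gene of the second pharyngeal arch, read 6.34, 6.65 and 7.29, then 7.21, 6.37 and 6.80, and 6.70, 7.47 and 6.98. Hoxb6 read 9.77, 10.17 and 10.03, then 10.39, 9.71 and 9.16, and 9.33, 10.70 and 9.59. All 3 lines overlapped for each of these genes.

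**Figure D4:**
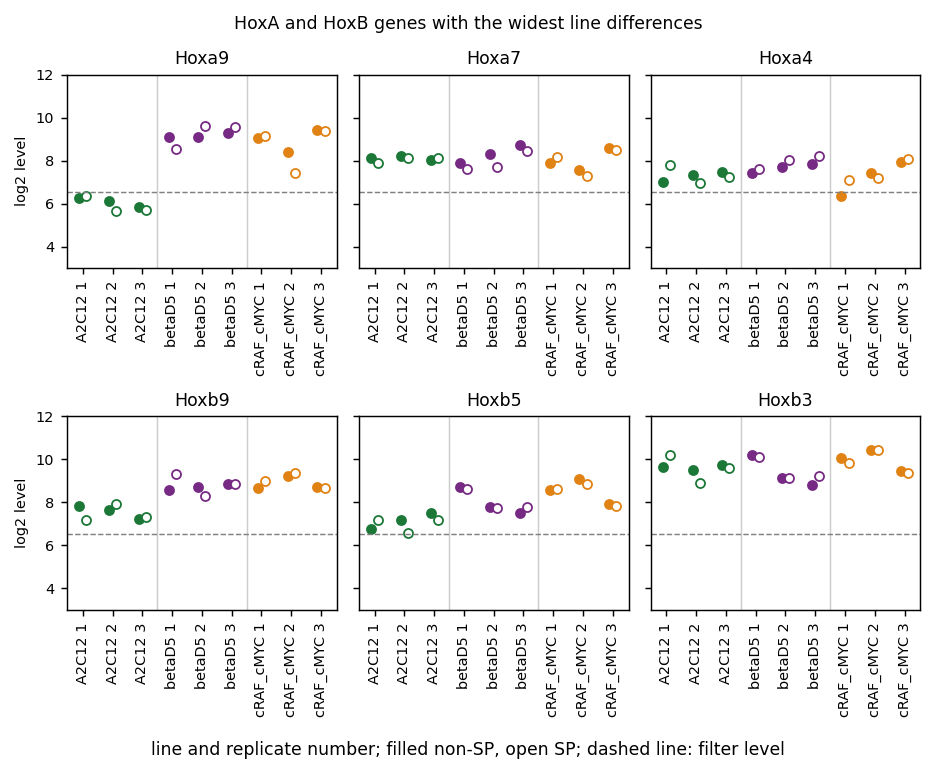
Log2 level of Hoxa9, Hoxa7, Hoxa4, Hoxb9, Hoxb5 and Hoxb3 (one panel each) on every array, by line and replicate number, with filled points for non-SP, open points for SP and a dashed line at the filter level of 6.54. Hoxa9 and Hoxb9 are lowest in A2C12, and Hoxa4 overlaps between lines.

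In counts, A2C12 differed from betaD5 in 2 of 18 Hox genes, both lower, where 26.1% of all genes were called, and from cRAF_cMYC in 3 of 18, all lower, where 19.5% were. Against the mean of the other lines 3 of 18 were lower, where 29.7% of all genes were called. The Hox share of 11.1% and 16.7% in the first 2 comparisons lies below the share of all genes. Over all 33 the counts were 2, 4 and 5, where 16%, 12.2% and 19% of all genes were called. The added calls were Hoxd12 (higher by 0.91 than in cRAF_cMYC) and, against the mean of the others, Hoxd12 (higher by 0.72) and Hoxb13 (higher by 1.34).

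Without both pairs the counts were 3 of 18 (43.1% of all genes), 7 of 18 (34%) and 5 of 18 (42.4%) in the same order, and over all 33 they were 5 (28.3%), 9 (23.2%) and 9 (29%). The median difference over the 18 Hox genes with all arrays was -0.13 from betaD5 and -0.26 from cRAF_cMYC, beside -0.04 and -0.03 over all 10916 genes. Without both pairs it was 0.06 and -0.47, beside -0.05 and -0.03. Hoxd12 read 4.96 to 5.45 in A2C12 and at most 4.88 in the other lines, below the filter level on every array. Hoxb13 averaged 6.74 in A2C12, 5.21 in betaD5 and 5.58 in cRAF_cMYC non-SP arrays. Its lines overlapped over all arrays, as betaD5 SP 1 read 6.70 and A2C12 SP 3 read 6.53. With all arrays Hoxb13 was called only against the mean of the other lines, and without both pairs also against betaD5. The other HoxD genes stood at 3.10 to 6.39 over all arrays.

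The study itself asked how SP and non-SP cells differ. Both arrays of a pair lay on the same side of the HoxC split, in each of the 9 pairs. Of the 297 differences of a Hox gene in a pair, 92.9% lay within 0.5 (log2) of 0, and 2 lay beyond 1. For the 18 members above the filter the share was 88.9%, against 94.8% for all genes above it. The differences beyond 1 were Hoxc13 in A2C12 1 (-1.30) and Hoxa2 in betaD5 2 (1.06).

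No Hox gene was called between SP and non-SP cells in any line or in the mean of the 3 lines. With limma and Benjamini-Hochberg adjustment 0 of 18 Hox genes and 0% of all genes passed in each of the 4 comparisons. Of the 18, 0 reached an unadjusted p under 0.05. Of all 10916 genes 9, 114, 77 and 143 did so in A2C12, betaD5, cRAF_cMYC and the mean of the lines. Pairs follow the replicate numbers of the labels. With the pair as a block 0 of 18 and 0% of all genes passed as well. Of the 18, 3 reached that p in betaD5 and 3 in the mean of the lines, beside 1162 and 1367 of all 10916 genes. The median 95% half-width over all genes was 0.45 in 1 line without the block and 0.25 with it. The test of whether the SP difference itself differs between lines called 0 of 18.

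On the probe set used, Hoxb4, known for blood stem cell expansion, was higher in SP cells in 8 of 9 pairs. The differences were 0.01, -0.01 and 0.06 in A2C12, 0.40, 0.09 and 0.32 in betaD5 and 0.06, 0.28 and 0.11 in cRAF_cMYC. The mean was 0.15 (paired limma fit, 95% interval 0.03 to 0.27, adjusted p = 0.314), which did not pass. Its levels were 8.08 to 8.99 in all but 1 array, and that array, cRAF_cMYC SP 2, read 9.04. A second Hoxb4 probe set did not show this direction throughout. In A2C12 it read 6.79, 7.08 and 7.10 in non-SP and 6.63, 6.78 and 7.07 in SP arrays, lower in SP in every pair. In betaD5 it read 6.79, 6.60 and 6.82, then 7.30, 6.42 and 6.70, higher in SP in pair 1 only. In cRAF_cMYC it was higher in SP in every pair.

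Hoxa7 was lower in SP cells in 7 of 9 pairs. Its differences were -0.26, -0.10 and 0.07 in A2C12, -0.29, -0.60 and -0.27 in betaD5 and 0.29, -0.24 and -0.10 in cRAF_cMYC. The betaD5 mean was -0.39 (paired limma adjusted p = 0.381). Beside this result, the 3′ to 5′ log2 ratio of control transcripts was 0.91 and 0.96 in betaD5 SP 2 and 3, against 0.09 to 0.65 in the other arrays. With that ratio as a covariate in the paired fit the Hoxa7 difference was -0.42 (limma adjusted p = 0.338).

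Hoxa5, required for mouse lung maturation, was higher in SP cells in 1 of 9 pairs on the probe set used, with a mean difference of -0.14. Its SP minus non-SP values were -0.04, -0.25 and -0.08 in A2C12, 0.05, -0.50 and -0.17 in betaD5 and -0.01, -0.06 and -0.18 in cRAF_cMYC. Levels ran from 8.75 to 9.87, and the A2C12 mean of -0.12 had an adjusted p of 0.999 in the paired limma fit. A second Hoxa5 probe set was higher in SP in A2C12 1 (9.46 against 9.28), betaD5 3 (9.03 against 8.95) and cRAF_cMYC 1 (9.11 against 9.06). It was lower in SP in the other pairs.

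Hoxa2 moved both ways, with differences of 0.70, -0.69 and -0.13 in A2C12, 0.14, 1.06 and 0.07 in betaD5 and 0.52, -0.15 and 0.33 in cRAF_cMYC. Hoxa4 gave 0.79, -0.35 and -0.24, then 0.16, 0.33 and 0.41, and 0.71, -0.21 and 0.15. Hoxa9 gave 0.08, -0.45 and -0.16, then -0.55, 0.54 and 0.31, and 0.12, -0.95 and -0.05. Each of these genes has pairs on both sides of 0 within A2C12 and cRAF_cMYC. Hoxb5 gave 0.42, -0.63 and -0.32 in A2C12 and lay between -0.23 and 0.28 in the other pairs.

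**Figure D5:**
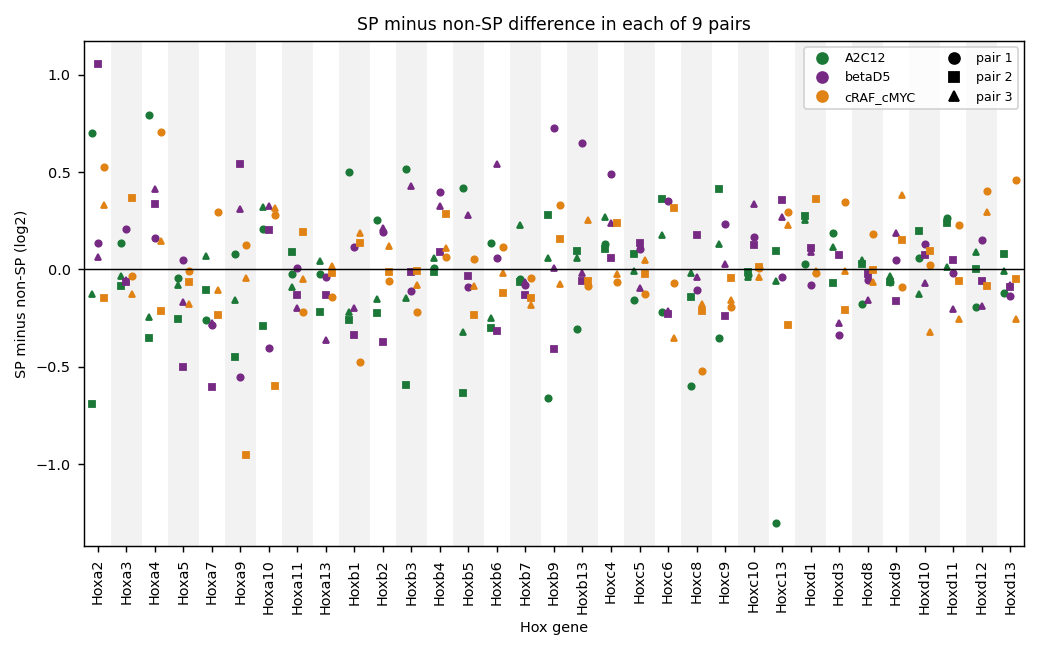
SP minus non-SP difference (log2) of each of the 33 Hox genes in each of the 9 pairs. Colour gives the line and the marker shape the replicate number. Most points lie within 0.5 of 0, and the farthest is Hoxc13 in A2C12 1 at -1.30.

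The proteins that work with Hox factors were compared between lines as context. Of 8 tested cofactors of the Pbx, Meis and Pknox families, A2C12 was called lower than betaD5 in 2 and higher in 0, and against cRAF_cMYC lower in 1 and higher in 1. Over all genes, called in either direction, the shares were 26.1% and 19.5% in these comparisons, so this count and those of the lists that follow are to be read against them. Meis2 averaged 8.80 in A2C12, 10.24 in betaD5 and 9.96 in cRAF_cMYC non-SP arrays and was called lower than in either line. Pknox2 averaged 7.83, 6.95 and 6.68, and with all arrays it was called higher than in cRAF_cMYC but not than in betaD5. Pbx3 averaged 8.07, 8.93 and 8.74, and was called against neither line alone, only against the mean of the other lines. Meis1, named after its values were seen, averaged 6.95, 6.63 and 7.91, and without both pairs betaD5 was lower than cRAF_cMYC by a difference of -3.38 (limma adjusted p = 0.000123).

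Among regulators of Hox chromatin, the Trithorax side had 10 tested genes, of which A2C12 was called lower than betaD5 in 3 and than cRAF_cMYC in 2 and higher in 0, near the shares of all genes (26.1% and 19.5%). Wdr5 averaged 9.93 in A2C12 and 10.79 in betaD5, Men1 8.46 and 9.11, and Dpy30 11.33 in A2C12 with a difference of -0.67. Of 14 tested Polycomb genes A2C12 was lower in 4 than in betaD5, near the share of all genes, and in 1 than in cRAF_cMYC, below it. Phc2 averaged 10.20 and 11.23, Ezh2 10.07 and 11.01, and Bmi1 11.07 and 11.66 in A2C12 and betaD5. Between betaD5 and cRAF_cMYC 0 of either list was called with all arrays, where 0% of all genes were.

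Of 5 tested upstream patterning genes 1, the retinoic acid hydroxylase Cyp26b1, was called, at 8.36 in A2C12 against 6.96 in betaD5 and 6.81 in cRAF_cMYC. Of 15 tested positional factors outside the clusters, A2C12 was higher than betaD5 in 5 and lower in 2, where 26.1% of all genes were called, and higher than cRAF_cMYC in 3 and lower in 1, where 19.5% were. Irx3 averaged 9.99 in A2C12, 6.71 in betaD5 and 6.69 in cRAF_cMYC, Prrx2 9.87, 8.08 and 7.61, and Sox9 9.82, 7.81 and 8.27. Of the 20 tested genes next to the clusters 0 were called between betaD5 and cRAF_cMYC with all arrays, where 0% of all genes were. Without both pairs 0 were called as well, where 22.8% of all genes were. Between A2C12 and betaD5 4 were called, where 26.1% of all genes were. Of these Calcoco1 was higher in A2C12, by 0.74, and Lnpk, Mtx2 and Smug1 were lower. None of these lists had a gene called between SP and non-SP cells.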

How the data were processed

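The study hybridised 18 RNA samples to Affymetrix 3′ arrays. Per the labels, 200 ng of total RNA gave 10 µg of labelled cRNA, and the submitters' processing notes name Affymetrix Expression Console. The deposited values are log2 signals for 45101 probe sets, with array medians of 5.80 to 6.72, and the summary algorithm is not given in the sources used here. Precision is limited by the number of arrays. All 18 columns were mapped to samples.

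Control probe sets were left out and the rest quantile normalized over 18 arrays. The 18193 genes were named from 34945 probe sets with 1 symbol, 34741 of them matched to current names, and 932 with several symbols were left out. The highest-mean probe set was used, and genes in the lowest 40% by mean level were dropped, which left 10916. R 4.3.3 and limma 3.58.1 (eBayes with trend) were fitted, lines on 9 non-SP arrays (6 residual degrees of freedom, 4 without both pairs) and SP against non-SP on all 18 (12, or 6 with the pair as a block). Genes were called at a two-sided Benjamini-Hochberg adjusted p under 0.05 over all genes. The fits were tested on simulated data.

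Named with values on the arrays were, in each cluster, up to 4 members above the filter with the widest range of line means, the 3 members with the smallest p in each SP comparison, and up to 3 called genes of each other list. The members and lists were chosen with earlier results of these data known. Deviations from group means of same-numbered SP and non-SP arrays correlated at 0.425 to 0.954 in all 9 pairs. In A2C12 the values were 0.425, 0.577 and 0.860. Those of same-numbered non-SP arrays of 2 lines correlated at -0.684 to 0.664. In betaD5 and cRAF_cMYC the pair that resembles the other line shapes these deviations, and SP and non-SP arrays of different numbers were not compared. The correlations thus cannot show alone that the numbers pair the arrays. The alternatives were scaling, filter, probe set choice, trend, pairing and arrays left out.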

Additional observations from a re-analysis of the deposited data

Results flagged for a closer look

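The SP minus non-SP difference of Hoxc10 had opposite signs in all pairs of A2C12 and all pairs of betaD5. Its SP minus non-SP difference was negative in all 3 A2C12 pairs (mean -0.03) and positive in all 3 betaD5 pairs (mean 0.21), a difference of -0.24 between the lines. The paired limma test of that difference over all genes without the filter gave an adjusted p of 0.910 and an unadjusted p of 0.0630. Groups of 3 arrays were not tested for outlying samples.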

How the results depend on the processing

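The number of Hox genes called changed with the scaling, the filter and the arrays kept. Hox genes called between A2C12 and betaD5 numbered 2, but 6 on the values as deposited, 1 with 60% of genes left out and 4 with the 9 SP arrays. Between A2C12 and cRAF_cMYC there were 3, but 1 with 60% left out and 7 without both resembling pairs. Against the mean of the other lines there were 3, but 8 as deposited, 5 with no filter, 1 with 60% left out and 5 without both pairs. Between betaD5 and cRAF_cMYC there were 0, but 6 without both pairs. On the values as deposited the median difference of all genes was -0.71, -0.45, -0.58 and 0.27 in the same order, beside -0.04, -0.03, -0.03 and 0.02 after quantile normalization. The cause of the other changes was not tested, apart from fewer or more genes tested and fewer arrays.

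Leaving out 1 array in turn gave 2 to 3, 2 to 5, 2 to 3 and 0 to 0 calls in that order, with 5 without the array cRAF_cMYC non-SP 3. All SP comparisons kept 0 to 0 calls. Hoxb5 in A2C12 against cRAF_cMYC ranged from -1.66 to -1.09 and lost its call in 5 of 6 cases. Differences that changed sign had no call. Hoxa7 between betaD5 and cRAF_cMYC was -0.0735 on SP arrays. Hoxb6 between A2C12 and betaD5 was -0.48 as deposited and -0.0618 to 0.55 with 1 array left out. With an array or pair left out, SP differences in A2C12 ranged from -0.73 to 0.17 for Hoxc13, from -0.48 to 0.0469 for Hoxb5 and from -0.32 to 0.0448 for Hoxa5. In cRAF_cMYC they ranged from -0.64 to 0.31 for Hoxa9 and from -0.0586 to 0.33 for Hoxb4.

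The pairing of SP with non-SP arrays as a replicate block left 0 Hox genes called in every SP comparison, also with the 3′ to 5′ ratio as a covariate. Replicate number as a block across lines, where correlations had both signs, gave 2, 3, 3 and 0 calls in that order, and it changed no call count. Over the named genes, 384 of the values kept direction and side of the threshold, 10 gained a call, 6 lost one and 13 changed sign. Every probe set tested on its own was added after seeing the data. Precision is limited by 3 arrays a group, and probe sets near background set a floor that hides changes of low genes.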

Other observations

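Other transcripts that separated the betaD5 and cRAF_cMYC arrays as Hoxc8 did were picked after their values were seen and are given as a description. Hoxb5os, an antisense transcript of the HoxB cluster, read 9.98, 6.02 and 5.88 in betaD5 non-SP arrays, 10.35, 10.41 and 6.0 in cRAF_cMYC and 6.40 to 6.52 in A2C12. Crabp1, a retinoic acid binding protein, read 9.96, 4.29 and 4.66, then 9.30, 10.47 and 4.20, and 7.93 to 8.91 in A2C12, which unlike for Hoxc8 was not with the low arrays. Meis1, a Hox cofactor, read 8.81, 5.61 and 5.47, then 8.29, 9.56 and 5.89, and 6.60 to 7.38 in A2C12. The pairs labelled betaD5 1, cRAF_cMYC 1 and cRAF_cMYC 2 were high for all of these.

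The fibroblast surface marker Thy1 read 10.90, 5.30 and 5.48 in betaD5 non-SP arrays, 10.37, 11.80 and 5.34 in cRAF_cMYC and 5.43 to 5.88 in A2C12. Pdgfra, a receptor of mesenchymal cells, read 12.20, 8.99 and 7.72, then 12.13, 12.42 and 8.79, and 9.86 to 10.19 in A2C12. The part of such markers in the HoxC pattern was not tested.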
